A study of Mus musculus with 5 samples.

Results

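Transcript levels of 10 Notch pathway genes were read in purified hematopoietic stem cells (HSCs). They are the receptors Notch1, Notch2, Notch3 and Notch4, the ligands Jag1, Jag2, Dll1 and Dll4, and the target genes Hes1 and Hey1. All probe sets that the platform annotation gives to exactly 1 of these genes were taken, which made 19 of 45037 probe sets and 10 of the 18193 genes that could be named in this way. The data are 5 Affymetrix mouse arrays, each hybridised with amplified RNA of pooled HSCs. Of these, 3 arrays came from wildtype (WT) mice and 2 from Atxn1L-null mice, all on the C57Bl/6 background. The mice were 6 to 8 weeks old by the labels, and 8 weeks old by the study's text. The cells were sorted from bone marrow as lineage-negative, c-Kit+ Sca-1+ CD150+ cells of the side population, which pumps out Hoechst dye, without treatment or culture. The null mice carry a null allele of Atxn1L, a paralog of the ataxin-1 gene, that is not restricted to HSCs. How many mice stand behind each array is not given in the labels. Values are log2 GCRMA values, a background-corrected and quantile-normalized signal per probe set, so that a difference of 1 is a doubling. The study calls the arrays biological replicates, but neither it nor the labels say which mice or cohorts went into each pool. The p-values therefore measure only the spread between these 5 arrays. With 3 against 2, the smallest 1-sided p of an exact rank test is 0.1.

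Atxn1l, the gene that the null allele removes, read 6.19 in WT and 3.44 in null pools on one of its probe sets and 6.15 and 3.53 on another, and 1.32 in both genotypes on the last, as a check of the labels. The HSC markers Procr, at 13.57 in WT and 13.39 in null pools, and Mecom, at 10.94 and 10.71, were bright, while Slamf1, which encodes the CD150 used in the sort, read 3.92 and 3.89. Of 8 measured HSC markers, 7 reached a mean of 5 in a genotype.

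Notch receptors are single-pass proteins that are activated by ligands of the Jagged and Delta-like families on a neighboring cell. Binding lets an ADAM protease and then gamma-secretase cut the receptor, and the freed intracellular part enters the nucleus, where it joins the DNA-binding protein Rbpj and Mastermind coactivators to switch on genes of the Hes and Hey families, which are transcriptional repressors. In blood, Notch1 is known for directing progenitors to the T cell lineage, and Notch2 and Jag1 have been studied in the renewal of HSCs and in their niche.

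The promoters of the receptors and ligands with the brightest signal, and of Hes5, the one target gene that passed the test described below, were searched for letters that factors of the pathway bind. Windows ran from 250 bases before to 50 after the start of the gene, in RefSeq's GRCm38.p6 sequence, and the table held 9 windows for 8 of the 10 genes. The table used here has no entry for Hes1 and Hey1. Capitals mark the core of the Rbpj site (TGGGAA), the N-box of Hes proteins (CACNAG) and the E-box type of Hes and Hey proteins (CACGNG), each on either strand, where CACGAG would be both of the latter. Notch1 lies at chr2:26503773-26504072 on the minus strand, Notch2 at chr3:98013288-98013587 on the plus strand, Jag1 at chr2:137116471-137116770 on the minus strand, Jag2 at chr12:112929446-112929745 on the minus strand and Hes5 at chr4:154960673-154960972 on the plus strand, and each is written 5' to 3' on the strand of its gene.
Notch1 promoter: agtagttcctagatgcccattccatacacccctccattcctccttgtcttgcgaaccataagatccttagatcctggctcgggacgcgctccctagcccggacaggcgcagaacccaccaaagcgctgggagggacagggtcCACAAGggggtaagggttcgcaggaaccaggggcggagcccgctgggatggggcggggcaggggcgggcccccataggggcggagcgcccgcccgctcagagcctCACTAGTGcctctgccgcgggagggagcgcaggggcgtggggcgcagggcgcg
Notch2 promoter: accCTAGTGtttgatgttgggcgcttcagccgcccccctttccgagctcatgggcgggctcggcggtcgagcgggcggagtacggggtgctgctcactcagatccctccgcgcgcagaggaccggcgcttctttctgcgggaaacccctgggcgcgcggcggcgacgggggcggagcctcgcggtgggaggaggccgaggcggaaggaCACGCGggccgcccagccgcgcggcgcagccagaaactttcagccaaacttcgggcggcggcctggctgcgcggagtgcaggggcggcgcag
Jag1 promoter: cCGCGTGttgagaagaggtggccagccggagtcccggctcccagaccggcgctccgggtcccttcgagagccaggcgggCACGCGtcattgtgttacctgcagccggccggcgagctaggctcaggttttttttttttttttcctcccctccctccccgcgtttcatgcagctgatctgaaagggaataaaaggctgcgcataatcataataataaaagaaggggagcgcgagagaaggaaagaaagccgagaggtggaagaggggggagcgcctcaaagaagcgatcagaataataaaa
Jag2 promoter: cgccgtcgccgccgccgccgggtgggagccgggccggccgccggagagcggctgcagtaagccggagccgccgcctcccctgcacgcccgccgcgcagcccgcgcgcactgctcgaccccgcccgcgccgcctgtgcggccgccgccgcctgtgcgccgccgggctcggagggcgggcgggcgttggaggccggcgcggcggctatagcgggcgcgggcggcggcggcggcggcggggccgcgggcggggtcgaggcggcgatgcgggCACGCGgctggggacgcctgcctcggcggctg
Hes5 promoter: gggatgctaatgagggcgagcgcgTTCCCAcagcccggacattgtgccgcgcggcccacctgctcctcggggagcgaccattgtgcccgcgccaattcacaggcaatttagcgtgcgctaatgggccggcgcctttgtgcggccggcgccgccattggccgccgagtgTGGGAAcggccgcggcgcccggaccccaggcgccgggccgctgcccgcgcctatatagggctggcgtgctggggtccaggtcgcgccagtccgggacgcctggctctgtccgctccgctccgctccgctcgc

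The Rbpj core was found at 2 places in the Hes5 window, starting at bases 25 and 169 of it, and in none of the 9 windows of receptors and ligands, while 25.6% of all 32851 promoter windows hold it. The N-box was found in windows of 5 of the 8 genes, Notch1, Notch2, Notch3, Dll1 and Dll4, against 42.5% of all windows, and the Hes and Hey E-box in windows of 6 of them, against 27.5%. In Notch1 the N-box letters occur 3 times, and the later ones overlap on opposite strands close to the start. Capicua, the repressor that Atxn1L binds, recognises TGAATGAA and TCAATGAA, and these letters are in none of the windows shown nor in any other of the 9, against 1.30% and 0.749% of all windows. A match of letters is only a description of the sequence.

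None of the 19 Notch probe sets was called higher or lower in Atxn1L null HSCs at the study's criterion, a limma p of at most 0.05 together with a fold of at least 1.5. Of all probe sets tested, 2.38% passed it, and 1 probe set passed at an adjusted p under 0.05. Among the 12936 probe sets with a mean of at least 5 in a genotype, 438 were called higher and 525 lower. Signal was found for 6 of the 10 genes: 7 of the 19 probe sets reached a mean of 5 in a genotype, called bright from here on, and they read 5.50 to 11.32 in every array. The other 12 read 1.79 to 4.55, and their differences between the genotypes did not exceed 0.17 in size. In such dim probe sets GCRMA values hardly vary, so a difference near 0 there says little about the transcript. The median difference, null minus WT, was -0.52 over the 7 bright probe sets, beside 0.0092 over all 12936 bright ones, and -0.0044 over the 19 probe sets, beside -0.0025 over all tested. Of the 7 bright differences 5 were below 0, beside 6312 of all 12936 bright ones, and the 7 come from 6 genes.

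Both null pools read below all WT pools for 4 of the 19 probe sets, of Notch1, Hey1 and, by both of its probe sets, Jag2, and above all of them for none. Among all probe sets tested the shares were 7.50% below and 6.75% above, and among bright ones 15.8% below and 17.2% above. The 4 probe sets come from 3 genes, so they are not 4 separate observations. By limma's p alone 1 of the 19 lay at or below 0.05, that of Notch1, where 5.59% of all probe sets did. It is 1 of the 7 bright member probe sets, and of all 12936 bright ones 2068 lay at or below that p. In pooled cells, fewer cells that carry a transcript and less transcript per cell cannot be told apart.

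**Figure D1:**
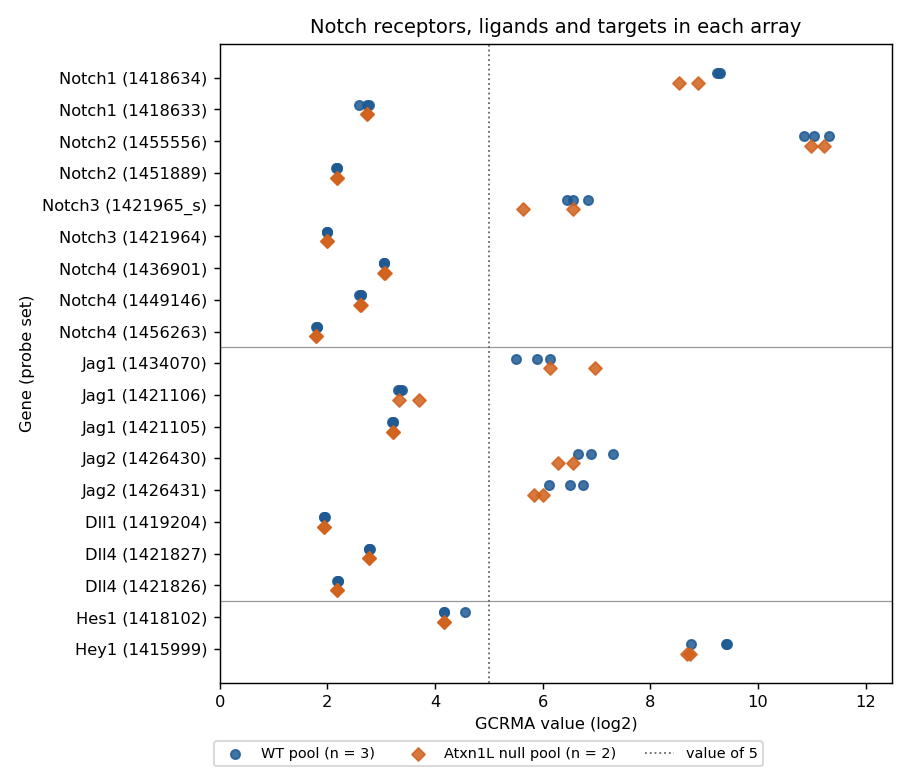
Log2 GCRMA values (horizontal axis) of the 19 Notch probe sets (vertical axis, receptors above ligands above targets), a circle for each of 3 WT pools and a diamond for each of 2 Atxn1L null pools. The null pools of Notch1, at 8.53 and 8.89, lie left of the WT pools near 9.27, whereas the pools of Notch2 overlap at 10.86 to 11.32.

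Among the receptors, Notch1 read lower in null HSCs and Notch2 hardly differed. Notch1, the receptor that T cell commitment depends on, read 9.29, 9.24 and 9.28 in WT pools against 8.89 and 8.53 in null pools on its bright probe set, 1418634_at. The WT pools were nearly equal and both null pools lay below them. The difference of -0.56 (standard error 0.12, 95% interval -0.90 to -0.22) is a 1.47-fold lower level, just short of the fold of 1.5, and its limma p was 0.0109 (adjusted p = 0.584). The other Notch1 probe set was dim, at 2.60 to 2.78 in every array, and adds no further reading.

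Notch2, a receptor with roles in marginal zone B cells and in HSC renewal, was read at 11.04, 10.86 and 11.32 in WT pools and 10.99 and 11.23 in null pools by 1455556_at. The null values fall inside the WT range. The difference was 0.03 (standard error 0.17, limma adjusted p = 1), and its 95% interval of -0.46 to 0.53 leaves out a change of 1.5-fold in either direction. Its second probe set read 2.17 to 2.18.

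Notch3, a receptor best known from vascular smooth muscle, was read at 6.56, 6.45 and 6.84 in WT pools and 5.64 and 6.56 in null pools. The first null pool is low and the second has the value of the first WT pool, so that the groups overlap. The difference of -0.52 (standard error 0.33, limma adjusted p = 1) had a wide 95% interval of -1.47 to 0.43. This is a probe set of the kind that can bind related transcripts, with an ID that ends in _s_at, and the specific probe set of Notch3 read 1.99 to 2.00 in every array.
Notch4, a receptor of endothelial cells, had 3 probe sets, and all lay between 1.79 and 3.07 in every array. Their differences ran from -0.0047 to 0.0015. Of 7 measured endothelial markers 1 was bright, Egfl7, at 7.53 and 7.49, and Cdh5, the defining cadherin of that lineage, read 2.35 and 2.34.

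The ligands gave a signal for the Jagged genes and none for the Delta-like genes. Jag2, a ligand with known roles in limb and craniofacial development, read lower in null HSCs by both of its probe sets. On 1426430_at the values were 7.31, 6.67 and 6.89 in WT against 6.29 and 6.56 in null pools. On 1426431_at they were 6.50, 6.75 and 6.11 in WT against 5.84 and 6.01 in null pools. On both, each null pool lies below each WT pool, but the nearest values of the genotypes are close and the WT pools themselves are spread. The differences were -0.53 (standard error 0.23, 95% interval -1.20 to 0.14) and -0.53 (standard error 0.22, 95% interval -1.16 to 0.10), a fold of 1.44 each, and neither passed (limma adjusted p = 1 for both).

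Jag1, the other Jagged ligand, ran the other way without passing. Its bright probe set, 1434070_at, read 5.50, 6.13 and 5.90 in WT against 6.98 and 6.13 in null pools. The first null pool is high and the second has the same value as the second WT pool. The difference of 0.71, the only one among the 19 to reach the fold of 1.5, had a standard error of 0.35, a 95% interval of -0.29 to 1.72 and a limma adjusted p of 1. Its dimmer probe sets read 3.30 to 3.70 and 3.20 to 3.23. Values shared between a WT and a null array, equal to 6 decimals, occurred in 5 of the 19 probe sets and in 2 of the 7 bright ones, those of Notch3 and Jag1.

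Dll1 and Dll4, the Delta-like ligands of thymic and vascular Notch signaling, were at the bottom of the scale. Dll1 read 1.93 to 1.95 on its only probe set. The pair of Dll4 probe sets read 2.18 to 2.20 and 2.76 to 2.79. The differences of these 3 probe sets ran from -0.0114 to -0.0031.

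Of the target genes, Hey1 had a clear signal and Hes1 had little. Hey1, a repressor of the bHLH family that Notch induces in many tissues, read 8.75, 9.41 and 9.42 in WT against 8.74 and 8.68 in null pools. The null pools were near each other and lay below all WT pools, but the first WT pool was level with them and apart from the other WT pools. The difference was -0.48, a fold of 1.40 (standard error 0.26, 95% interval -1.21 to 0.25, limma adjusted p = 1). Hes1, a classic Notch target and a repressor that maintains progenitor cells, read 4.17, 4.18 and 4.55 in WT pools and 4.18 in both null pools, a difference of -0.12 (standard error 0.14, limma adjusted p = 1). The adjusted p of every member probe set other than that of Notch1 was 1.

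**Figure D2:**
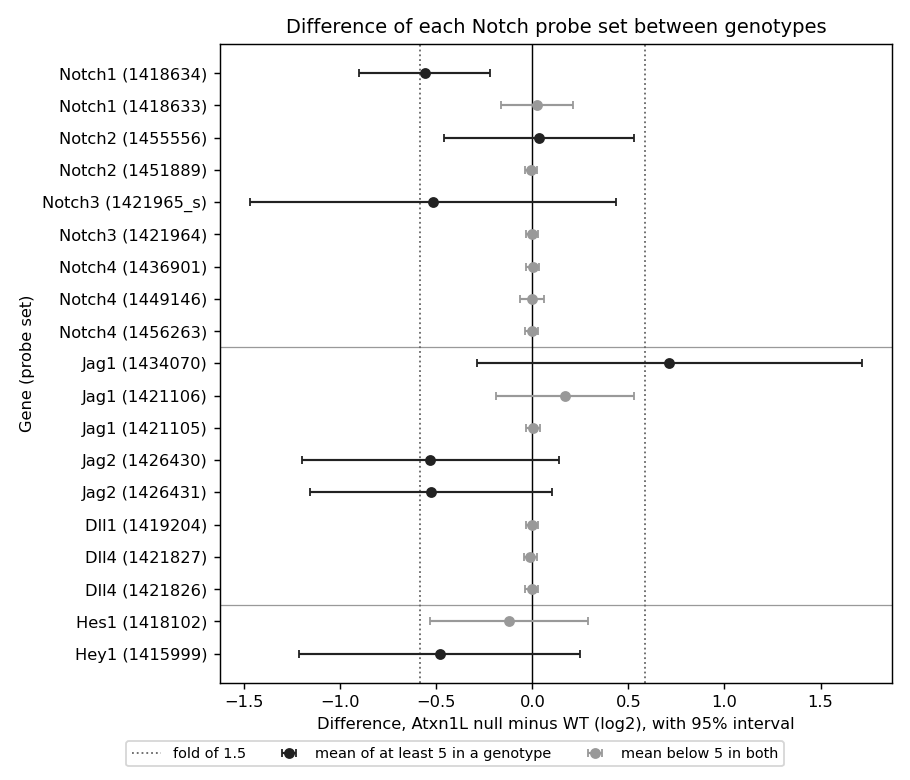
Differences in log2 GCRMA value, Atxn1L null minus WT (horizontal axis), for the 19 Notch probe sets (vertical axis), with limma 95% intervals as bars and dotted lines at a fold of 1.5. Of the 7 bright probe sets, drawn in black, the interval leaves out 0 only for Notch1 (-0.90 to -0.22), while the dim ones, in grey, sit close to 0.

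When each array was omitted in turn, the direction of the differences held for Notch1 (-0.74 to -0.38), Notch3 (-0.98 to -0.06), Jag1 (0.29 to 1.14), Jag2 (-0.68 to -0.35 and -0.70 to -0.38) and Hey1 (-0.70 to -0.37), and not for Notch2 (-0.09 to 0.16). Each of these differences but that of Notch2 and that of the first Jag2 probe set passed the criterion once. Notch1 passed without the first null array (-0.74), Notch3 without the second null array (-0.98), and Jag1 without the second null array (1.14). Hey1 passed without the first WT array (-0.70) and the second probe set of Jag2 without the third WT array (-0.70). Where a single null array is left, limma takes its spread from the WT arrays. The size of the Notch3 and Jag1 differences rests on the first null pool, without which they are -0.06 and 0.29.

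**Figure D3:**
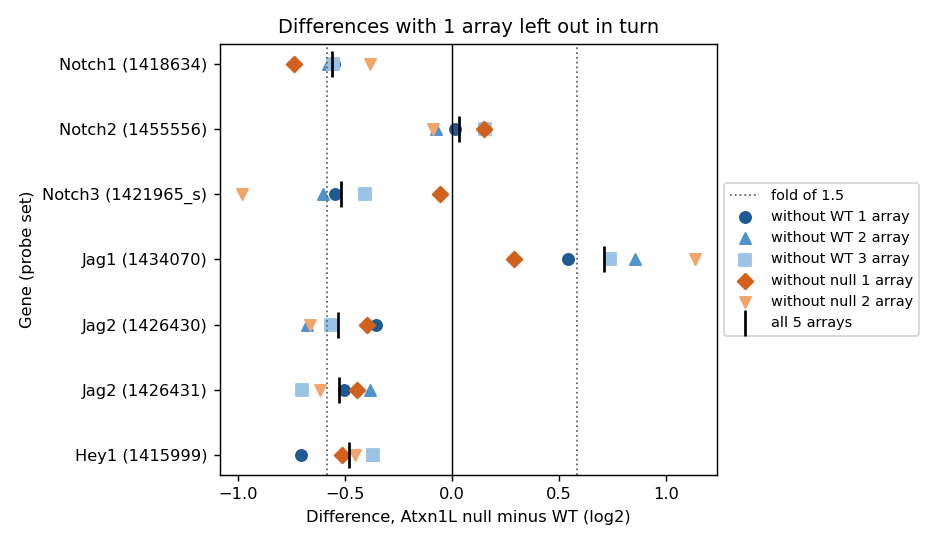
Differences in log2 GCRMA value, null minus WT (horizontal axis), of the 7 bright Notch probe sets (vertical axis) with each array left out in turn, a symbol per array left out, a bar for all 5 arrays and dotted lines at a fold of 1.5. Notch1 stays between -0.74 and -0.38, whereas Notch3 runs from -0.98 to -0.06 with the null array that is left out.

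The null pools also differed in the control probe sets for transcript ends. The excess of the 3' over the 5' signal of Gapdh was 5.89, 6.02 and 5.92 in WT pools and 7.33 and 7.21 in null pools, and that of beta-actin was 6.71, 6.60 and 6.40 in WT pools and 7.43 and 7.28 in null pools. No pool of one genotype overlapped the other in either control. Where in the transcript each Notch probe set lies is not known from the table used here, and the part of these end effects in the differences of Notch1, Jag2 and Hey1 was not tested. No marker of the 8 lists, each read by its brightest probe set, was called in either direction. None of 7 T cell and none of 5 erythroid markers was bright, and the mean level of the erythroid list was 2.69 to 2.73 in WT and 2.69 in both null arrays. Bright were 2 of 5 B cell, 2 of 4 megakaryocyte, 2 of 6 stromal and 5 of 7 myeloid markers. The mean level of 7 T cell markers was 2.57 to 2.62 in WT and 2.58 to 2.59 in null arrays, that of 7 endothelial markers 3.57 to 3.69 and 3.54 to 3.65, that of 6 stromal markers 4.12 to 4.35 and 4.15 to 4.49, and that of 7 myeloid markers 8.50 to 9.09 and 8.56 to 9.23. The B cell list lay at 4.28 to 4.63 and 4.55 to 4.62, and the megakaryocyte list at 6.49 to 6.71 and 6.46 to 6.67. The list of 8 HSC markers lay at 8.19 to 8.33 in WT and 8.22 to 8.25 in null arrays, below the myeloid list. Of the myeloid markers, Camp read 13.42 in WT and 13.29 in null pools, Ngp 11.91 and 11.92, and Mpo 11.48 and 12.09. Elane, at 4.65 and 4.63, and Itgam, at 2.53 and 2.54, were dim. Whether the myeloid signal came from other cells in the pools was not tested.

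Around the 10 genes, 65 of 71 further pathway genes were measured, each by its brightest probe set, that with the highest mean over the arrays. None was called higher and 1 was called lower, where 1.57% of all genes read in this way were called higher and 1.43% lower. By limma's p alone, 5 were higher and 6 lower, and 7.44% of all genes lay at or below 0.05. Of the 65 genes 44 were bright, against 7236 of all 18193, and 2068 of the 12936 bright probe sets lay at or below that p. The gene called lower was Hes5, a Notch target of the same family as Hes1, chosen for the promoters above because of this call. It read 8.28, 8.11 and 8.38 in WT pools and 7.28 and 7.91 in null pools, so that both null pools were below all WT pools. It fell by 0.66 on the log2 scale, 1.58-fold (standard error 0.23, limma adjusted p = 0.867). The call rests on a probe set with an ID that ends in _x_at, whose probes can bind unrelated transcripts, it held in 1 of the 5 fits with an array left out, that without the second null array, and the specific probe set of Hes5 read 3.78 to 3.82 in every array.

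None of the other genes listed as targets passed. Hes6 is an inhibitor of Hes1, and whether Notch induces it in these cells was not tested. It read 10.15 in WT and 9.52 in null pools on a probe set of the same _x_at kind (difference -0.63, limma adjusted p = 1), with both null pools below all WT pools. The other Hes6 probe set was dim, at 2.73 in both genotypes, so the signal rests on the _x_at one. Cdkn1a, the cell cycle inhibitor p21, read 11.03 and 10.90. Genes chosen after their values were seen, the feedback inhibitor Nrarp, which Notch induces in many cells, and Gata2, a target in the embryo, read 9.19 and 9.14, and 8.78 and 8.57.

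None of the genes that modify and cut the receptor passed the criterion. Of 6 measured genes of receptor modification 5 were bright, and of 7 of receptor cleavage 5 were. Mfng, a fringe enzyme that puts sugars on Notch and alters which ligand it answers, read 11.46, 11.15 and 11.17 in WT and 10.61 and 10.92 in null pools, a difference of -0.50 that passed by p and missed the fold (limma adjusted p = 0.808), and Rfng, another fringe, read 7.66 and 7.85. Adam10, the protease that makes the first ligand-dependent cut, read 10.19, 10.51 and 9.98 in WT and 10.86 and 10.76 in null pools, a difference of 0.58 or 1.498-fold (standard error 0.18, limma adjusted p = 0.804) that lies just under the fold required. Psenen, a subunit of gamma-secretase, read 11.95 and 11.79. Adam17, named after its value was seen, read 9.24 and 8.99 (limma adjusted p = 0.632).

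The nuclear partners of Notch did not move together. Rbpj, the DNA-binding partner, read 10.51 and 10.52, and Snw1, a cofactor in the Rbpj complex, 12.43 and 12.22. The probe set with the highest mean passed for none of the 8 measured genes, but dimmer ones passed for 2 of them. For the acetyltransferase gene Kat2b, 1457809_at read 6.38, 5.98 and 6.29 in WT and 4.63 and 4.96 in null pools, and fell by 1.42 on the log2 scale (standard error 0.18, limma adjusted p = 0.346). That call held in all 5 fits with an array left out, yet the brighter probe set of Kat2b differed by 0.47 in the other direction, from 7.06 to 7.53 (limma adjusted p = 1). For Crebbp, a coactivator of many pathways, 1434633_at read 7.71 in WT and 6.72 in null pools and fell by 0.98 (limma adjusted p = 0.599, standard error 0.22). The brightest Crebbp probe set read 9.88 and 9.60 without passing, and the call ended without either null array, although the difference stayed at -0.95 and -1.01. Kat2a and Maml1, both named after their values were seen, read higher by 0.47 and 0.35, past the p and under the fold (limma adjusted p = 0.646 and 0.876).

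Among 8 measured corepressor genes, Tle3, a Groucho-type corepressor that Hes proteins recruit, passed on its second probe set, which read 8.14 in WT and 7.54 in null pools and fell by 0.61 (limma adjusted p = 0.801, standard error 0.19). Its brightest read 8.29 and 7.79, a difference of -0.50 in the same direction that missed the fold (limma adjusted p = 0.810). The Tle3 call held in 2 of the 5 fits with an array left out, those without WT 2 and without null 2. Tle2, of the same family, read 9.31 and 8.93, with both null pools below all WT pools. Its difference of -0.38 was past the p and under the fold (limma adjusted p = 0.804). Ctbp1 read 9.17 and 9.04. Spen, named after its value was seen, was dim at 4.18 and 4.36 (limma adjusted p = 0.344).

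No gene passed for the ligands outside the list, for the handling of ligands or for inhibition and turnover. All 4 further ligand genes were below 5, with Dner at 2.87 and 3.56, through the first null pool alone (4.22), and Dlk1 at 2.76 and 2.73. Mib1, the ubiquitin ligase that lets ligands be taken up and pull on the receptor, read 9.74 and 9.96, and its relative Mib2 7.36 and 6.89, both past the p and under the fold (limma adjusted p = 0.764 and 0.619). Of the 15 inhibitors and turnover genes, Aak1, a kinase of endocytosis, read 11.14 and 11.55, and Dtx2, a Deltex-type ubiquitin ligase, 10.11 and 9.77. The Dtx2 values come from a probe set of the _x_at kind, and its other probe set was dim, at 3.16 and 2.95. Itch, a ubiquitin ligase that turns over Notch and was named after its value was seen, read 9.21, 8.90 and 7.74 in WT and 7.81 and 7.11 in null pools, a difference of -1.16 with a standard error of 0.56 (limma adjusted p = 1). The other Itch probe sets, all with means below 5, differed by 0.061, 0.0025 and -0.11. Over the 65 genes 33 differences were above and 32 below 0, with a median of 0.0014, beside -0.0019 over all genes.

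**Figure D4:**
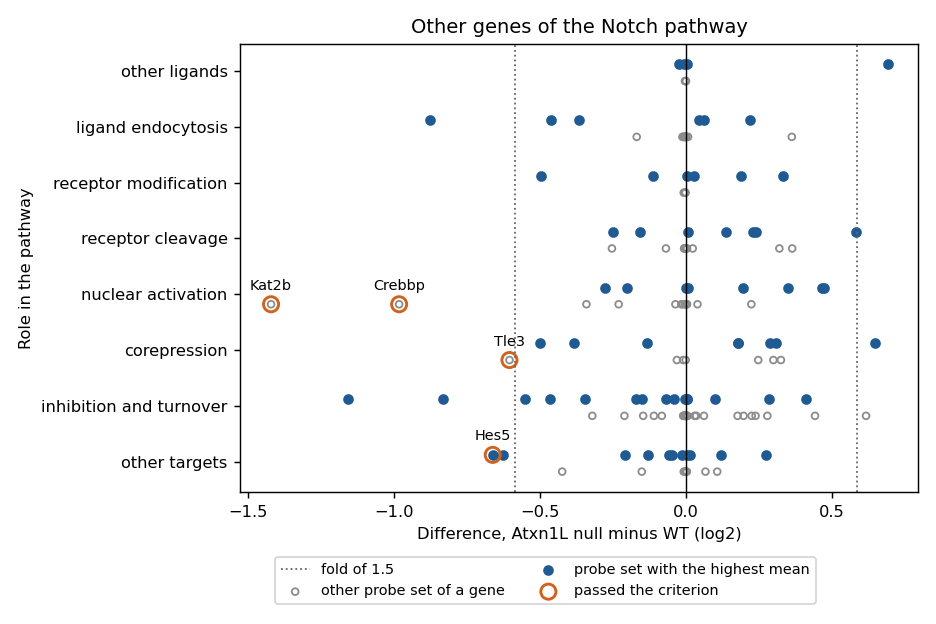
Differences in log2 GCRMA value, null minus WT (horizontal axis), of the further Notch pathway genes by role (vertical axis), filled for the probe set with the highest mean of each gene and open for its other probe sets, with dotted lines at a fold of 1.5 and rings around probe sets that passed. All 4 probe sets with a ring, of Kat2b, Crebbp, Tle3 and Hes5, lie on the lower side, at -1.42 to -0.61. They are 4 of the 150 probe sets of these genes, where 2.38% of all probe sets tested passed in either direction.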

How the data were processed

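RNA of sorted HSC pools, amplified by T7-based in vitro transcription, was hybridised to 5 Affymetrix MOE430.2 arrays, 3 WT and 2 Atxn1L null. The authors ran GCRMA on the scanned arrays, which corrects background by probe sequence, applies quantile normalization and summarises each probe set, and deposited a log2 value per probe set and array. That the base is 2 follows from their range (0.925 to 15.84). No version of GCRMA is named in the labels or methods. Quantile normalization gives the arrays like distributions, so a change shared by most transcripts would not be seen, and the number of arrays limits the precision.

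From the 45101 probe sets, 64 Affymetrix controls were left out. A mean per genotype was fitted to the other 45037 with lmFit and eBayes at their defaults (limma 3.58.1, R 4.3.3), with 3 residual and 0.771 prior degrees of freedom, and Benjamini-Hochberg adjustment ran over all of them. The criterion for a call was a p no higher than 0.05 with a fold no lower than 1.5, as in the study. The fit was also tested on simulated data. Probe sets were named from GEO's platform annotation, which gave 34945 of them 1 gene, 932 several and 9160 none. Of the 71 further pathway genes 6 were left unnamed by it and are not reported here. The genes named are every member, each further pathway gene with a passing probe set and the 2 with the highest mean in each role, and any other is said to have been named after its value was seen. The members and lists were chosen with earlier results of these data known, and the lists were written from general knowledge. Samples were grouped by their titles. Alternatives were array weights, a robust fit with a variance trend, centring on the median, a further quantile normalization, only bright or only specific probe sets, a block for the replicate number, other criteria, averaged probe sets of a gene, and each array left out in turn.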

Additional observations from a re-analysis of the deposited data

How the results depend on the processing

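The direction of the Notch1, Notch3, Jag1, Jag2 and Hey1 differences held under every alternative that gave a value (without cross-hybridizing probe sets Notch3 has none), and so did the absence of a call for Notch2, Notch4, Dll1, Dll4 and Hes1, whose differences lie near 0. Of these, Notch2 turned to -0.0733 without the second WT array and ran from -0.0872 to 0.156 with each array left out, Hes1 to 0.0034 under the block (-0.187 to 0.0034 with each array left out), Dll1 to 0.00061 under the block (-0.00685 to 0.00061 with each array left out) and 0.00017 after renewed quantile normalization, and Notch4 to -0.0011 after the latter, -0.0082 to 0.0112 with each array left out and -0.0015 as the mean of its probe sets. Sizes moved too. With array weights the difference shrank from 0.71 to 0.42 for Jag1 and from -0.53 to -0.24 for the brightest Jag2 probe set, and with the probe sets of a gene averaged, which mixes in dim ones, it was -0.27 for Notch1, -0.26 for Notch3 and 0.30 for Jag1. The cause was not tested.

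No member was called higher and 2 lower with array weights, Hey1 (-0.70) and the second Jag2 probe set, while the brightest Jag2 probe set was not called, and 1 lower at a p of at most 0.05 alone. With 1 array left out in turn 0 to 1 were called higher and 0 to 1 lower. At an adjusted p under 0.05, at a fold of at least 2 and without dim or cross-hybridizing probe sets the count was 0 in each direction. The median over the members was -0.52 without dim probe sets, which leaves 7, -0.0668 with each gene read by its brightest probe set, and -0.0118 to 0.00061 with 1 array left out.

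Of the further pathway genes, 5 were lower and 1 higher with array weights (1 lower and 0 higher as reported), 0 lower and 1 higher after renewed quantile normalization, 6 lower and 5 higher at a p of at most 0.05 alone, and 0 to 4 lower and 0 to 3 higher with 1 array left out. None was lower without cross-hybridizing probe sets, which removes the Hes5 call, at a fold of at least 2, at an adjusted p under 0.05 (0 calls), or with the probe sets of a gene averaged.

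The labels number the pools of both genotypes, but nothing ties equal numbers to a shared day or litter. Deviations of equally numbered pools from their genotype means correlated at -0.03 for the first pair and -0.26 for the second, across probe sets. The deviations of 2 null pools are exact opposites, so swapping their numbers only turns the signs, to 0.03 and 0.26. These values therefore cannot decide on a pairing, and as the labels state none, the numbers were not taken as one. Only the third WT pool has its number, so a block for the number takes up that array. The differences under the block therefore equal those without the third WT array, with fewer residual degrees of freedom. With the replicate block 1 member was called lower, the second Jag2 probe set (-0.70), 2 further pathway genes were lower, Hes5 not among them, and over all probe sets 290 were higher and 472 lower. None of the probe sets of Kat2b (-1.38), Crebbp (-0.94), Tle3 (-0.56) and Hes5 (-0.60) that passed as reported was called with the block.

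Over all probe sets 510 were higher and 564 lower as reported. Array weights gave 911 lower, a p of at most 0.05 alone 1442 higher and 1075 lower, a fold of at least 2 gave 60 and 170, an adjusted p under 0.05 gave 0 and 1, and leaving out 1 array gave 350 to 1128 higher and 359 to 820 lower, with 1128 higher without the second null array and 359 lower without the first WT array. With 3 and 2 arrays, the intervals of all bright member probe sets but that of Notch1 include 0, and dim probe sets give no usable difference. Leaving out a null array leaves 1, which is assumed to vary like the WT arrays.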
